A study of Mus musculus with 33 samples.

Results

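Microglia are the resident macrophages of the retina and brain. The genes described here are 38 genes known for their use in microglia and other macrophages, out of 47729 genes in the count tables. They were taken by symbol from a fixed list, which was chosen with earlier results of these data known. Of these, 8 are known for their use in resident microglia (P2ry12, P2ry13, Tmem119, Siglech, Gpr34, Fcrls, Cx3cr1 and Hpgds). The other 30 are shared by macrophages in general, and several are found in all leukocytes. They comprise 8 complement and lysosome genes, 9 receptors and adaptors, 7 pan-leukocyte genes, 3 myeloid transcription factors and 3 genes of tissue macrophages and antigen presentation.

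Microglia do not arise from retinal progenitors. Their precursors form in the yolk sac, enter the eye during embryonic life, and depend for survival on the receptor encoded by Csf1r and on its ligands Csf1 and Il34. Resident microglia carry purinergic and chemokine receptors with which they sense neurons, and they clear debris and synapses through complement C1q, the lipid sensor Trem2 with its adaptor Tyrobp, and lysosomal enzymes.

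The cells were retinal progenitors from mouse retina of embryonic day 14 (genotype C57BL/6J), kept in culture and read by RNA-seq. There were 33 libraries in 11 groups of 3. At day 0 the groups were untreated cells, cone primed cells given COCO protein, which blocks BMP, TGF-beta and Wnt ligands outside the cell, and rod primed cells given taurine and retinoic acid. Cells under cone induction with COCO protein or rod induction with taurine and retinoic acid were sampled at days 5, 12, 21 and 35, and are called cone and rod cultures here. The labels give no sort, gate or purity for the progenitors, and they do not say that replicates are separate cultures or animals, so p-values measure only the spread between these samples. In bulk RNA, fewer cells of a type and less RNA per cell cannot be told apart.

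Libraries held 7511837 to 19166442 counts in genes, and levels are given as CPM, counts scaled to a common library size. A count of 0 leaves room for up to 3 counts, which is 0.174 to 0.407 CPM depending on the library. Floors and counting intervals cover counting error only. The progenitor genes Rax, Six3 and Pax6 were at 91.3 CPM or more in all 9 day 0 libraries. Lhx2 was at 34.9 to 96.1 CPM and Sox2 at 25.7 to 39.4 CPM in these libraries. Not all of these genes set day 0 apart. At cone day 35, Rax was at 13.9 to 30.6 CPM, but Six3 was still at 136 to 170 CPM and Pax6 at 356 to 456 CPM. The members were barely detected at day 0: 1 of the 38 had no count in any of the 9 libraries, and 7 reached 10 counts in at least 1. Of the 38 members, 31 passed the filter on low counts and were tested. P2ry12, P2ry13, Siglech, Gpr34, Fcgr1, Selplg and Aif1 did not. A tested member could pass through the group where it was high, so counts among the 31 are read beside the share of all genes called.

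Libraries of the same group differed widely in these genes. The cone day 35 replicate 3 library held the highest level of 32 of the 38 members over all libraries. Among the 3 cone day 35 libraries, 36 members were highest in replicate 3 and 32 were lowest, or tied for lowest, in replicate 1. Replicate 3 of cone day 12 was the lowest of its group for 34 members, and replicate 2 of rod day 12 was the highest of its group for 26. The heat map of all members shows these libraries.

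**Figure D1:**
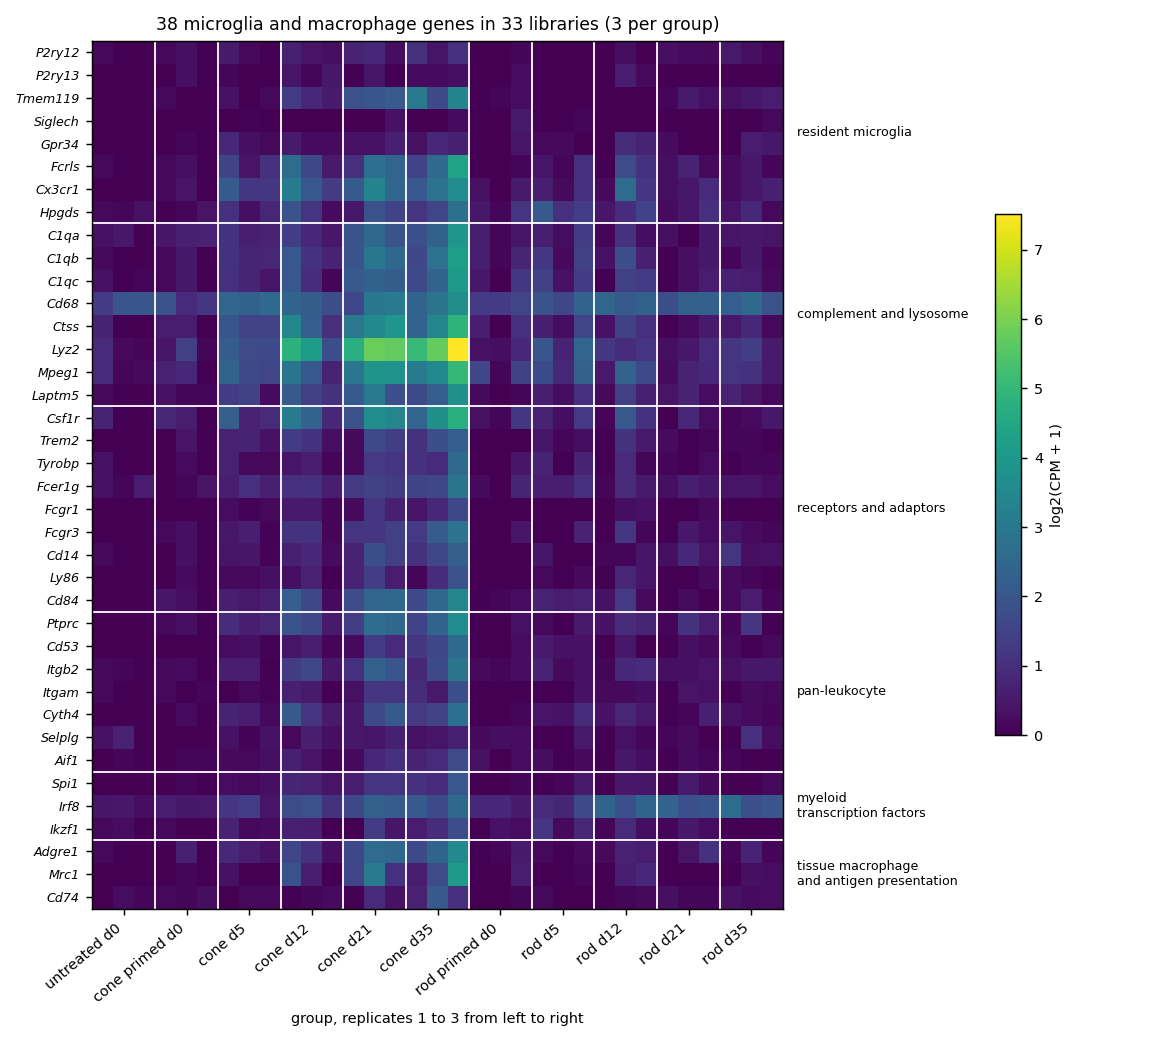
Levels of the 38 members as log2(CPM + 1) in each of the 33 libraries, with members in rows by list and groups in columns (3 replicates each). Levels are high in the cone day 21 and day 35 columns, with cone day 35 replicate 3 at the top for 32 members, and low in all day 0 columns.

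The myeloid transcription factor PU.1, the product of Spi1, binds purine-rich sites that hold GAGGAA, and many macrophage promoters lack a TATA box and use such sites. The RefSeq promoter table (build GRCm38.p6) held 27 of the 38 members. GAGGAA was found on either strand in the 250 bases before the start of 16 of these 27 (59.3%), and in 23.1% of 26998 other genes. The composite motif of PU.1 with an IRF partner, searched on both strands as GGAA, any 2 bases and GAAA, was found in 0 of 27 members and 2.38% of other genes, and the GGAA of these motifs can overlap. A match is a description of letters, not of binding, and the windows without one show only that these letters are not there.

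The 120 bases before the start are shown for 4 members with a match and 2 without, chosen because they span the roles described below, with GAGGAA or its reverse complement in capitals. C1qb lies at chr4:136886201-136886320 on the minus strand, Trem2 at chr17:48346281-48346400 on the plus strand, Laptm5 at chr4:130913196-130913315 on the plus strand and Mrc1 at chr2:14229294-14229413 on the plus strand. The windows without a match are Lyz2 at chr10:117282273-117282392 and Cx3cr1 at chr9:120068297-120068416, both on the minus strand.
C1qb: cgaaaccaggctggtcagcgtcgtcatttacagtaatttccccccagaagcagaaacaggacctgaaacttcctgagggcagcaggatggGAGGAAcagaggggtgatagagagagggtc
Trem2: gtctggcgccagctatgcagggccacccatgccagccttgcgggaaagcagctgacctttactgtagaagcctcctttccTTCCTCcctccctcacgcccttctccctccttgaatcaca
Laptm5: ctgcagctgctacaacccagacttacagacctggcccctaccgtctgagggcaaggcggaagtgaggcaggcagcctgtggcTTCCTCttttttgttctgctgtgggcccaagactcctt
Mrc1: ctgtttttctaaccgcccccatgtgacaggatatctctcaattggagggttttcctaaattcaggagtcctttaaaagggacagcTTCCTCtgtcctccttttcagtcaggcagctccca
Lyz2: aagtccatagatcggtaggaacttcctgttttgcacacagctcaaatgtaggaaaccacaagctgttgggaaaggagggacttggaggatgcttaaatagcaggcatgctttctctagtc
Cx3cr1: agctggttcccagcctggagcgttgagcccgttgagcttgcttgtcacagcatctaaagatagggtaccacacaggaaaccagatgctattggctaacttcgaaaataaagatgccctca

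Cone cultures held more of nearly every tested member than rod cultures at day 35, and of most of the complement and lysosome genes by day 21. At day 35, 28 of 31 tested members were called higher in cone cultures and 0 lower, beside 7.77% of all genes called higher and 4.51% lower (edgeR quasi-likelihood test, Benjamini-Hochberg adjusted p under 0.05 over 18150 genes). At day 21, 17 were called higher and 0 lower, beside 5.86% and 3.14% of all genes, and all 17 were also called at day 35. The median log2 fold change of the tested members, cone over rod, was 0.24, 0.97, 3.30 and 4.20 at days 5, 12, 21 and 35 (the last 4.18 with Ikzf1, which had no count in rod day 35, at its bound). The median over all genes was between -0.01 and 0.03 at these days.
The count at day 21 rested on single libraries: it was 8 without cone day 21 replicate 2, 9 without rod day 21 replicate 2 and 11 without rod day 21 replicate 3. At day 35 it was 19 without cone day 35 replicate 3, the library with the highest levels, and 18 when the 6 compared libraries were fitted alone, where 23 members were tested. The calls lost without cone day 35 replicate 3 were those of Hpgds, C1qc, Tyrobp, Fcgr3, Ly86, Ptprc, Itgb2, Itgam and Mrc1.

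The size of the day 35 folds also rested on that library. Without it, 25 of the 28 called members differed by over 1.5 times less, the exceptions being Cd74, Tmem119 and Trem2, and the median of the 28 log2 fold changes was 3.51 in place of 4.26. Lyz2 was then at 5.27, C1qb at 4.44, Fcrls at 3.97, C1qa at 3.18 and Mrc1 at 3.15, and none of the 28 was below 0. Leaving out rod day 35 replicate 1, 2 or 3 moved 3, 7 and 5 of the 28 by over 1.5 times, and leaving out cone day 35 replicate 2 moved Cd74, to 1.96. At day 21, 8 of the 17 called members moved by over 1.5 times without rod replicate 3, and 4 without rod replicate 2, all to larger values.

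The test used also changed some calls. At day 21, voom called 7 members that edgeR did not (Fcer1g, Fcgr3, Cd14, Ptprc, Cd53, Itgam and Spi1) and did not call C1qc (adjusted p by limma 0.0536). At day 35, voom called Cd68 and Cd14 and did not call Ly86, Itgb2 or Mrc1, and DESeq2 did not call Ly86 or Mrc1.

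At day 12, 2 members were called higher in cone cultures, Tmem119 and Lyz2, beside 5.98% of all genes, and fitting those 6 libraries alone called 0 of 20 tested. At day 5, 0 members were called (1 at an unadjusted p under 0.05, and 0 by DESeq2 and by voom), beside 9.28% of all genes called in either direction. Averaged over days 5 to 35, 25 members were called higher and 0 lower, beside 15.6% and 12.2% of all genes. Every cone library lay above every rod library for 4, 3, 23 and 30 of the 38 members at days 5, 12, 21 and 35. The same held for 16.8%, 12.1%, 14.5% and 16.3% of all tested genes at these days.

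**Figure D2:**
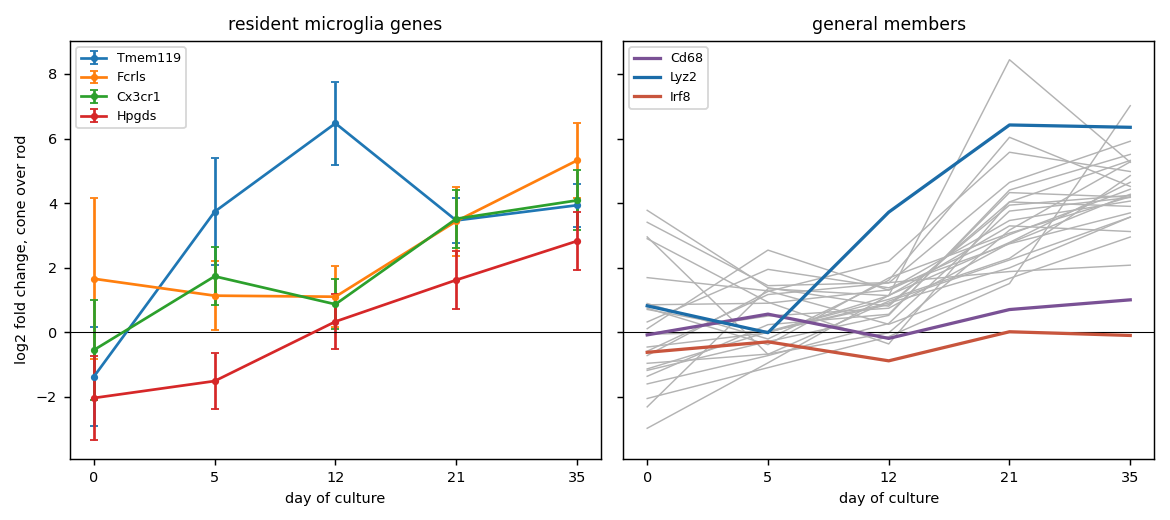
Log2 fold change of cone over rod cultures (vertical axis) by day of culture (horizontal axis), for tested resident microglia genes with SE bars and for tested general members as lines. Values are fitted, and depend on the prior count where a group had no count. They run from -2.97 to 3.78 at day 0 and from -1.51 to 3.73 at day 5, with 0 called. The median reaches 3.30 at day 21 and 4.20 at day 35, while Cd68 stays under 2. Irf8 is at 0.02 at day 21 and -0.10 at day 35, and at -0.31 over the mean of days 5 to 35.

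Of the 8 resident microglia genes, 4 were tested, and at day 35 all 4 (Tmem119, Fcrls, Cx3cr1 and Hpgds) were called higher in cone than in rod cultures. The purinergic receptors were barely detected. P2ry12, through which microglia follow ADP, gave 1.02, 0.343 and 1.05 CPM in cone day 35 and 0.425, 0.243 and 0.0646 CPM in rod day 35, which are at most 13 counts. The groups overlapped in the second cone library, and the ratio of cone to rod was 3.57 (95% counting interval 1.65 to 8.58), with no test. P2ry12 was 0.656, 0.770 and 0.222 CPM in cone day 21 and 0.232, 0.154 and 0.130 CPM in rod day 21, which also overlapped.

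P2ry13, a second ADP receptor, was seen at up to 0.242 CPM in cone day 35 and at 0 in all rod day 21 and day 35 libraries, a ratio of at least 2.59 at day 35. Gpr34, a lysophosphatidylserine receptor, was at 0.256 to 0.773 CPM in cone day 35 and 0 to 0.485 CPM in rod day 35, with a ratio of 1.75 (95% counting interval 0.809 to 3.96). Siglech, a sialic acid binding lectin, did not exceed 5 counts in any library, and at day 35 both groups were at or under the floor, so no fold is given. These 3 genes were not tested, and no difference in Gpr34 was detectable at this depth. P2ry12 and P2ry13 overlap the span of Med12l, and Gpr34 that of Cask, each on the other strand. Whether reads of Med12l or Cask add to these few counts was not tested.

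Cx3cr1, the receptor for the neuronal chemokine fractalkine, was 3.41, 9.33 and 4.59 CPM in cone day 21 and 0.232, 0.386 and 0.848 CPM in rod day 21. It was 3.07, 6.10 and 11.5 CPM in cone day 35 against 0.170, 0.404 and 0.581 CPM in rod day 35. Every cone library was above every rod library on both days. The log2 fold change was 3.51 ± 0.90 (SE, adjusted p by edgeR 0.0136) at day 21 and 4.08 ± 0.93 (adjusted p by edgeR 0.00409) at day 35. The day 21 call was lost when any of 3 libraries was left out (cone replicate 2, adjusted p by edgeR 0.0653, and rod replicates 1 and 2, 0.0564 and 0.0648). At day 12 the values overlapped, at 7.81, 3.18 and 1.55 CPM in cone and 0.143, 5.25 and 1.30 CPM in rod cultures.

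Fcrls, an Fc receptor-like gene typical of mouse microglia, was called at day 21 (log2 fold change 3.44 ± 1.07, adjusted p by edgeR 0.0422) and at day 35 (5.32 ± 1.15, adjusted p by edgeR 0.00243). Its day 21 call was lost without any 1 of 5 of the 6 libraries, the exception being cone replicate 1. Cone day 35 libraries ran from 1.88 to 19.0 CPM and rod day 35 libraries from 0.0646 to 0.404 CPM. Hpgds, which makes prostaglandin D2, was called at day 35 (2.83 ± 0.91, adjusted p by edgeR 0.0398) and not at day 21 (1.62 ± 0.89, adjusted p by edgeR 0.290). The day 35 call was lost without cone replicate 3, rod replicate 1 or rod replicate 3, and when the 6 compared libraries were fitted alone (adjusted p by edgeR 0.268, 0.129, 0.157 and 0.0745). In rod cultures Hpgds was highest at day 5, at 3.26, 1.00 and 1.60 CPM.

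Tmem119, a membrane protein that marks resident microglia in adult tissue and is also made by bone-forming cells, followed another course. It was 1.52, 0.777 and 0.464 CPM in cone day 12 and at 0 counts in all 3 rod day 12 libraries, at least 12.0-fold higher (adjusted p by edgeR 0.00202). It was 2.62, 3.00 and 3.48 CPM in cone day 21 against 0.0772, 0.463 and 0.261 CPM in rod day 21, and 7.25, 2.15 and 9.28 CPM in cone day 35 against 0.255, 0.404 and 0.516 CPM in rod day 35. No group pair overlapped. The log2 fold change was 3.46 ± 0.69 (adjusted p by edgeR 0.00265) at day 21 and 3.93 ± 0.66 (adjusted p by edgeR 0.000391) at day 35.

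Within cone day 35, Tmem119 was high in replicates 1 and 3 and low in replicate 2, whereas most members were lowest in replicate 1. A list of 8 fibroblast and pericyte genes, which matrix-forming cells express, summed to 2859, 520 and 3717 CPM in these 3 libraries, and Col1a1, the main fibrillar collagen chain, was 1294, 245 and 1408 CPM. Pearson correlations of log2 CPM were taken with the mean of the tested genes of a list, each gene centred on its own mean. Over the 12 cone libraries of days 5 to 35, Tmem119 had 0.994 with the fibroblast and pericyte list and 0.837 with the other members. C1qb had 0.801 and 0.967. After Tmem119, the tested members highest with the fibroblast and pericyte list were Spi1 (0.920, and 0.932 with the other members) and Lyz2 (0.901 and 0.966). These libraries share the day of culture, so the values are a description, and the part of fibroblast-like cells in the Tmem119 result was not tested. Resident genes without Tmem119 still gave 3 of 3 tested called higher in cone at day 35.

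**Figure D3:**
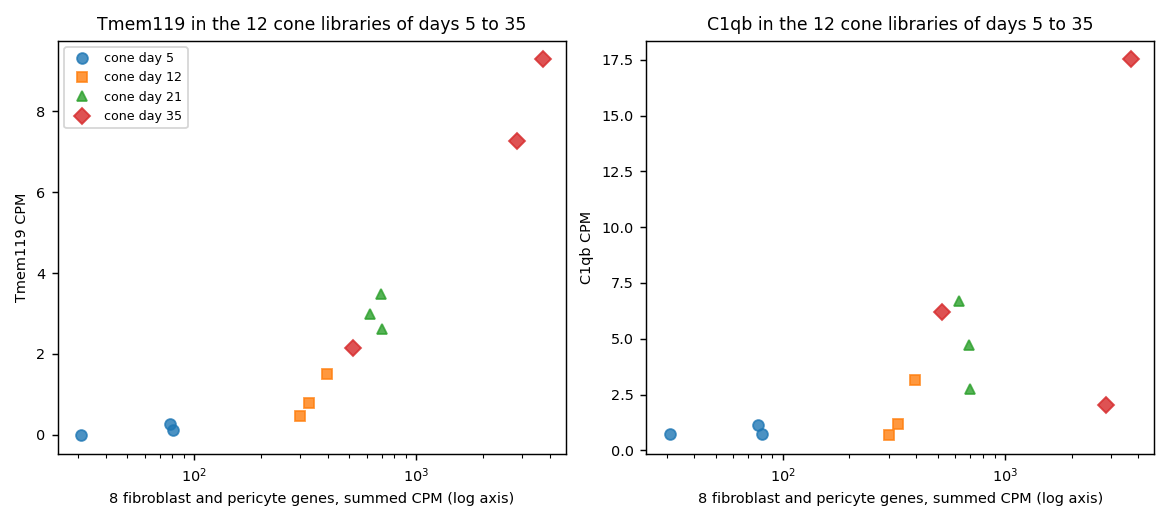
CPM of Tmem119 (left) and C1qb (right) against the summed CPM of 8 fibroblast and pericyte genes (log axis) in the 12 cone libraries of days 5 to 35, marked by day. Tmem119 rises along with the fibroblast sum, and C1qb in the cone day 35 library at 2859 CPM of the sum is 2.05 CPM, below both others of its group.

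Among the 8 complement and lysosome genes, 7 were called higher in cone than in rod cultures both at day 21 and at day 35, and Cd68 was not. C1qa, C1qb and C1qc, which encode the chains of the complement starter C1q, lie side by side on chromosome 4, from C1qb at its start 136880129 to C1qa at its end 136898803 (GRCm38). C1qa was 2.76, 4.71 and 2.81 CPM in cone day 21 and 0.232, 0 and 0.391 CPM in rod day 21, and at day 35 it was 2.56, 4.03 and 14.0 CPM in cone and 0.340, 0.404 and 0.323 CPM in rod cultures. The groups did not overlap, and the log2 fold change was 3.94 ± 0.87 (adjusted p by edgeR 0.00408) and 4.24 ± 0.82 (adjusted p by edgeR 0.000836) on these days.

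C1qb, whose upstream bases are shown above with a GAGGAA match, was 2.76, 6.68 and 4.74 CPM in cone day 21 and 0, 0.232 and 0.391 CPM in rod day 21. At day 35 it was 2.05, 6.18 and 17.5 CPM in cone and 0.0850, 0.404 and 0.0646 CPM in rod cultures. The groups were apart on both days, with log2 fold changes of 4.41 ± 0.98 (adjusted p by edgeR 0.00406) and 5.51 ± 1.01 (adjusted p by edgeR 0.000467). C1qc was called with 3.75 ± 1.12 (adjusted p by edgeR 0.0341) and 4.18 ± 1.07 (adjusted p by edgeR 0.00996), and lost its day 35 call without cone replicate 3 (adjusted p by edgeR 0.106) or rod replicate 3 (0.0576). Leaving out any 1 of the 6 compared libraries ended the C1qc call at day 21 (adjusted p by edgeR 0.0561 to 0.111).

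Lyz2, the lysozyme of macrophages and granulocytes, was the most abundant member in cone day 21 and day 35 libraries. It was 27.2, 16.9 and 2.47 CPM in cone day 12 against 1.29, 0.955 and 1.23 CPM in rod day 12, 25.2, 55.1 and 51.3 CPM in cone day 21 against 0.232, 0.386 and 0.848 CPM in rod day 21, and 32.4, 52.5 and 182 CPM in cone day 35 against 1.27, 1.62 and 0.452 CPM in rod day 35. All cone libraries were above all rod libraries on each of these days, with the lowest cone value in day 12 replicate 3. The log2 fold change was 3.72 ± 0.78 (adjusted p by edgeR 0.00215) at day 12, 6.42 ± 0.88 (adjusted p by edgeR 1.95e-05) at day 21 and 6.35 ± 0.82 (adjusted p by edgeR 7.61e-06) at day 35. Fitting the day 12 libraries alone gave an adjusted p by edgeR of 0.0812. Lyz2 has a near-identical neighbouring copy, Lyz1, which did not exceed 0.386 CPM in any library. How reads that match both were counted is not given in the sources used here, so the level of Lyz2 is uncertain.

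Ctss, a lysosomal cysteine protease, had the next largest difference of the group at day 21, at 5.58 ± 1.08 on the log2 scale (adjusted p by edgeR 0.00117), and 4.98 ± 1.00 (adjusted p by edgeR 0.00113) at day 35. The pore-forming Mpeg1 had 4.33 ± 0.91 and 4.18 ± 0.87, and the lysosomal membrane protein Laptm5 3.46 ± 0.83 and 4.06 ± 0.85, all called. The day 21 call of Laptm5 was lost without cone replicate 2 or rod replicate 3 (adjusted p by edgeR 0.0524 and 0.0585). Cd68, a lysosomal glycoprotein used as a macrophage stain, was detected in all 33 libraries, including those of day 0. It was 4.27, 6.35 and 12.0 CPM in cone day 35 and 3.74, 4.93 and 2.65 CPM in rod day 35, which overlapped. Its log2 fold change was 1.01 ± 0.41 (adjusted p by edgeR 0.112) at day 35, and voom called it (adjusted p by limma 0.0261).

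Per kilobase of exon, at cone day 35, Lyz2 had a mean of 67.5 CPM per kb, Ctss 10.4, C1qb 7.89, C1qa 6.61 and Cd68 6.00 CPM per kb. At the other end stood Gpr34 with 0.254, Ikzf1 with 0.224, Selplg with 0.0908, P2ry13 with 0.0771 and Siglech with 0.0159 CPM per kb. At rod day 35 Cd68 led with 3.00 CPM per kb, followed by Lyz2 with 0.847 and Irf8 with 0.515 CPM per kb. Each of these means is over 3 libraries, and the order was not tested, so it is a description. Replicates could differ widely, and at cone day 35 Lyz2 was 88.9 ± 81.0 CPM (SD, n = 3).

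**Figure D4:**
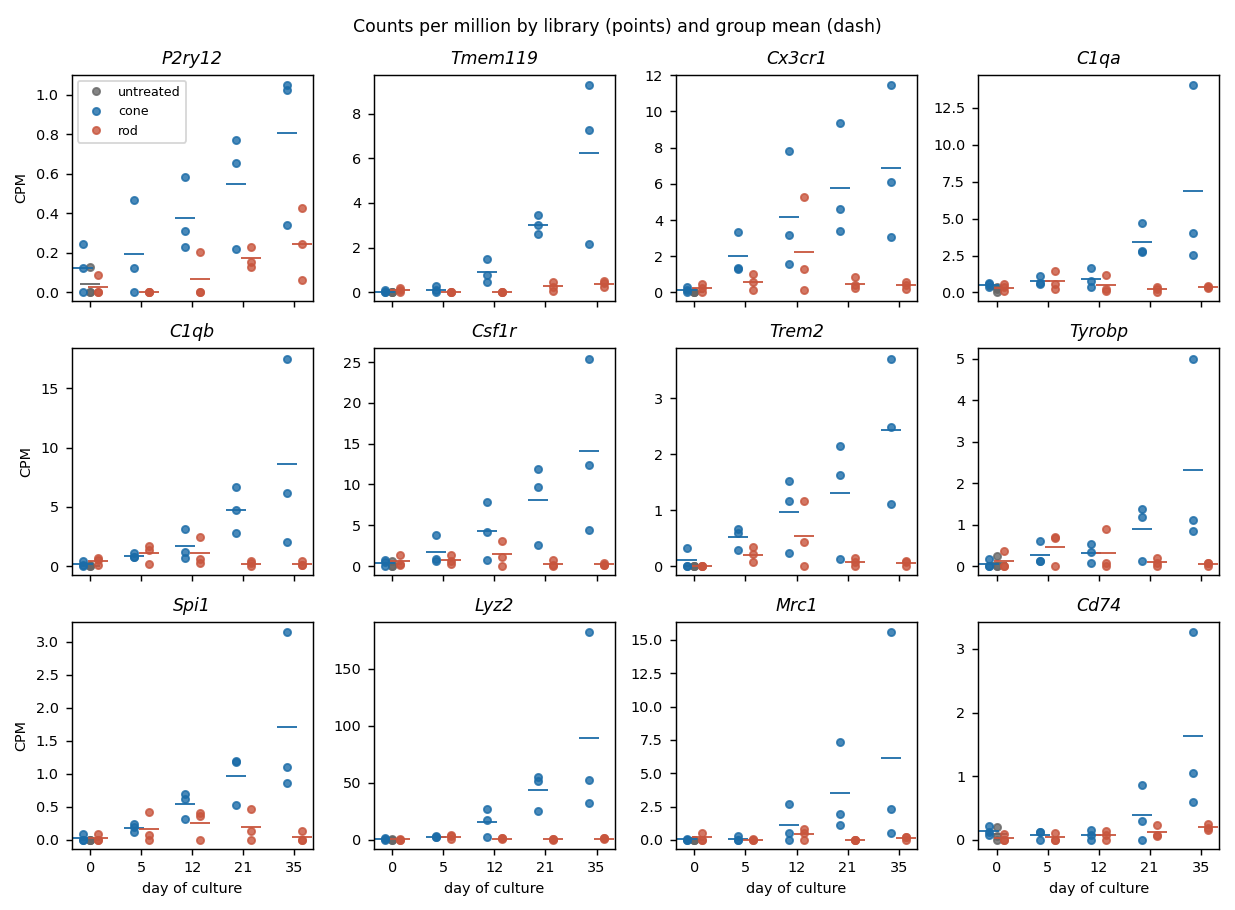
CPM of 12 members (1 panel each) by day of culture, with a point for each library and a dash for each group mean, for untreated, cone and rod libraries. Cone points spread upward from day 12 or 21, with the top point at day 35 in replicate 3 for most panels, and rod points do not exceed 5.25 CPM. At day 35 all rod points lie below all cone points except in the P2ry12 panel.

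Of the 9 receptors and adaptors, 8 were tested, 3 were called higher in cone cultures at day 21 and 7 at day 35. Csf1r, the receptor on which microglia depend, was 2.62, 11.9 and 9.70 CPM in cone day 21 and 0, 0.772 and 0.196 CPM in rod day 21, and 4.44, 12.4 and 25.4 CPM in cone day 35 and 0.0850, 0.162 and 0.387 CPM in rod day 35. The groups did not overlap. The log2 fold change was 4.64 ± 1.16 (adjusted p by edgeR 0.0105) at day 21, lost without rod replicate 3 (0.0635), and 5.92 ± 1.22 (adjusted p by edgeR 0.00158) at day 35. Of its 5774 exon bases, 873 overlap exons of Hmgxb3 on the other strand.

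Trem2, a receptor for lipids and debris, was 0.131, 2.14 and 1.63 CPM in cone day 21 and 0.154, 0 and 0.0652 CPM in rod day 21, and 1.11, 2.49 and 3.71 CPM in cone day 35 and 0.0850, 0.0809 and 0 CPM in rod day 35. The first cone library lay among the rod libraries at day 21, and the groups were apart at day 35. Rod libraries held 1 to 3 counts in all, so the ratio with its 95% counting interval is given, which was 20.1 (6.48 to 101, adjusted p by edgeR 0.0291) at day 21 and 48.8 (13.1 to 409, adjusted p by edgeR 0.00399) at day 35. The day 21 call of Trem2 was lost without cone replicate 2 or 3 or without rod replicate 2 or 3 (adjusted p by edgeR 0.0770 to 0.116).

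Tyrobp, the adaptor through which Trem2 signals, was 0.131, 1.37 and 1.18 CPM in cone day 21 and 0.0772, 0 and 0.196 CPM in rod day 21, which overlapped (adjusted p by edgeR 0.127). At day 35 it was 1.11, 0.858 and 5.00 CPM in cone and 0, 0.0809 and 0.0646 CPM in rod cultures. The day 35 groups did not overlap, with a ratio of 47.1 (95% counting interval 12.6 to 395, adjusted p by edgeR 0.00935). That call was lost without cone replicate 3 (adjusted p by edgeR 0.0889) or rod replicate 1 (0.0508).

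Fcer1g, the signal chain of Fc receptors, was higher in cone by 3.57 ± 0.73 on the log2 scale at day 35 (adjusted p by edgeR 0.00149) and 2.00 ± 0.71 at day 21 (0.0810). The low-affinity Fc receptor Fcgr3 had 4.27 ± 1.16 at day 35 (adjusted p by edgeR 0.0155), lost without cone replicate 3, rod replicate 2 or rod replicate 3 (0.0748, 0.0531 and 0.0761). Fcgr1, the high-affinity receptor, was untested, with 0.341, 0.773 and 2.02 CPM in cone day 35 and 0 in all rod day 35 libraries, at least 14.0-fold higher. Cd84, a leukocyte adhesion receptor, was called at both days, with a ratio of 83.6 (95% counting interval 22.7 to 697, adjusted p by edgeR 0.000826) at day 21 and a log2 fold change of 4.52 ± 0.90 (adjusted p by edgeR 0.00132) at day 35. Ly86, a partner of a Toll-like receptor, was called at day 35 with overlapping groups, at a ratio of 17.4 (95% counting interval 5.59 to 87.2, adjusted p by edgeR 0.0376). That call was lost without any 1 of 5 of the 6 libraries, the exception being cone replicate 1, and with DESeq2 (adjusted p 0.0603) and voom (adjusted p by limma 0.0626). Cd14, the co-receptor for bacterial lipopolysaccharide, was not called at day 21 or 35 (log2 fold change 2.08 ± 0.80, adjusted p by edgeR 0.0938 at day 35), though voom called it on both days (adjusted p by limma 0.0132 and 0.0123), and was called for the days averaged (1.74 ± 0.49, adjusted p by edgeR 0.00942).

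Of the 7 pan-leukocyte genes, 5 were tested, 2 were called higher in cone at day 21 and all 5 at day 35. Ptprc, which encodes the common leukocyte antigen CD45, was higher in cone by 3.70 ± 0.96 on the log2 scale at day 35 (adjusted p by edgeR 0.0117), and the tetraspanin Cd53 had 4.65 ± 1.00 (adjusted p by edgeR 0.00290). The integrin chain Itgb2 was called at both days (3.30 ± 0.85 and 3.12 ± 0.82), as was Cyth4, an exchange factor of blood cells (3.07 ± 0.92 and 4.20 ± 0.98). The day 21 calls were lost without cone replicate 2 or rod replicate 2 for both genes, and without cone replicate 3 or rod replicate 1 for Cyth4. At day 35, Ptprc, Itgb2 and Itgam were not called without cone replicate 3 or without rod replicate 1, nor Ptprc and Itgam without rod replicate 3. The day 35 call of Ptprc was also lost with the 6 compared libraries fitted alone (adjusted p by edgeR 0.0888), and that of Itgb2 with voom (adjusted p by limma 0.0509). Itgam, the partner of Itgb2 in CD11b, was called at day 35 (3.57 ± 1.03, adjusted p by edgeR 0.0221). Of its 5024 exon bases, 3450 are shared with a second gene model on the same strand, so its counts may be too low. Aif1, the cytoskeletal protein IBA1, was untested at 0.683, 0.858 and 2.34 CPM in cone day 35 and 0.0850, 0 and 0 CPM in rod day 35, a ratio of 52.1 (95% counting interval 8.90 to 2100). Selplg, a selectin ligand, overlapped between the groups, with a ratio of 0.970 (95% counting interval 0.438 to 2.12).

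The 3 myeloid transcription factors differed from each other. Spi1, which encodes PU.1, was 0.525, 1.20 and 1.18 CPM in cone day 21 and 0, 0.463 and 0.130 CPM in rod day 21 (log2 fold change 2.29 ± 0.88, adjusted p by edgeR 0.108). At day 35 it was 1.11, 0.858 and 3.15 CPM in cone and 0, 0 and 0.129 CPM in rod cultures. The groups did not overlap on either day, and the day 35 ratio was 34.4 (95% counting interval 9.12 to 290, adjusted p by edgeR 0.00248). Ikzf1, a zinc finger factor of blood cells, had no count in rod day 35 and was at least 17.4-fold higher in cone (adjusted p by edgeR 0.00810).

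Irf8, which microglia need to form, was not called at any day between cone and rod cultures. It was 3.24, 2.23 and 4.68 CPM in cone day 35 and 5.35, 2.59 and 2.97 CPM in rod day 35, which overlapped (log2 fold change -0.10 ± 0.43, adjusted p by edgeR 0.926). At rod day 12 Irf8 was already 4.36, 2.59 and 4.33 CPM, and 2 of these 3 were above all of cone day 12 at 2.33, 2.64 and 1.16 CPM. Over all 33 libraries its Pearson correlation with the mean of the other members was 0.547, the lowest of the 31 tested members beside 0.559 for Cd74. With the fibroblast and pericyte list it was 0.800 over these libraries. Over the 12 cone libraries of days 5 to 35 alone, Irf8 had 0.837 with the other members and Cd74 0.617.

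Among the 3 genes of tissue macrophages and antigen presentation, 2 were called higher in cone at day 21 and all 3 at day 35. Adgre1, which encodes F4/80, had a log2 fold change of 3.02 ± 0.89 (adjusted p by edgeR 0.0312) and 4.43 ± 0.97 (adjusted p by edgeR 0.00280), and the first was lost without cone replicate 2 or 3 or rod replicate 1 or 2, and with the compared libraries alone (adjusted p by edgeR 0.0643). Mrc1, the mannose receptor of border macrophages, was 1.97, 7.36 and 1.11 CPM in cone day 21 and 0 counts in all rod day 21 libraries, at least 48.6-fold higher (adjusted p by edgeR 0.0132). At day 35 it was 0.512, 2.32 and 15.6 CPM in cone and 0, 0.243 and 0.194 CPM in rod cultures. The groups did not overlap (5.27 ± 1.40, adjusted p by edgeR 0.0148). The day 21 call was lost without cone replicate 2 or rod replicate 2 or 3, and the day 35 call was lost without cone replicate 3, rod replicate 1 or rod replicate 3 (adjusted p by edgeR 0.195, 0.0702 and 0.0536). It was also lost with DESeq2 (adjusted p 0.0831) and voom (adjusted p by limma 0.129).

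Cd74, the invariant chain of MHC class II, was 0, 0.856 and 0.296 CPM in cone day 21 and 0.232, 0.0772 and 0.0652 CPM in rod day 21, which overlapped. At day 35 it was 0.597, 3.26 and 1.05 CPM in cone and 0.255, 0.162 and 0.194 CPM in rod cultures. The day 35 groups did not overlap (log2 fold change 2.95 ± 0.79, adjusted p by edgeR 0.0136), with the highest value in replicate 2. The call was lost without cone replicate 2 (adjusted p by edgeR 0.161), rod replicate 2 (0.0517) or rod replicate 3 (0.0577).

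Across libraries, resident and general genes were high together. The general members summed to 73.1, 173 and 149 CPM in cone day 21 and 86.3, 154 and 449 CPM in cone day 35, and to 8.88, 15.0 and 15.5 CPM in rod day 21 and 17.2, 18.4 and 9.81 CPM in rod day 35. The 7 resident genes without Tmem119 summed to 7.60, 14.3 and 38.3 CPM in cone day 35 and 1.10, 2.34 and 1.36 CPM in rod day 35. These resident genes came to 8.51% to 9.26% of the general members' sum in cone day 35 and 6.40% to 13.8% in rod day 35, ranges that overlap. The general sum holds Cd68 and Irf8, which overlapped between cultures at day 35 and so weigh more in the lower rod sum. The myeloid transcription factors, Irf8 among them, had mean sums of 6.38 CPM in cone and 3.68 CPM in rod day 35, within means of 230 and 15.2 CPM. A share without Cd68 and Irf8 was not computed, so the overlap does not show that the resident share was alike. The share was not constant over time. It was 10.2% to 23.0% in cone day 5 and 12.4% to 20.1% in cone day 12, both above cone day 35. At cone day 21 it was 7.90% to 11.0%. In rod cultures it was 11.9% to 21.0% at day 5, 3.91% to 28.5% at day 12 and 10.8% to 13.9% at day 21. Lyz2 alone made up 34.1% to 40.5% of the general sum in cone day 35 and 4.61% to 8.77% in rod day 35.

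**Figure D5:**
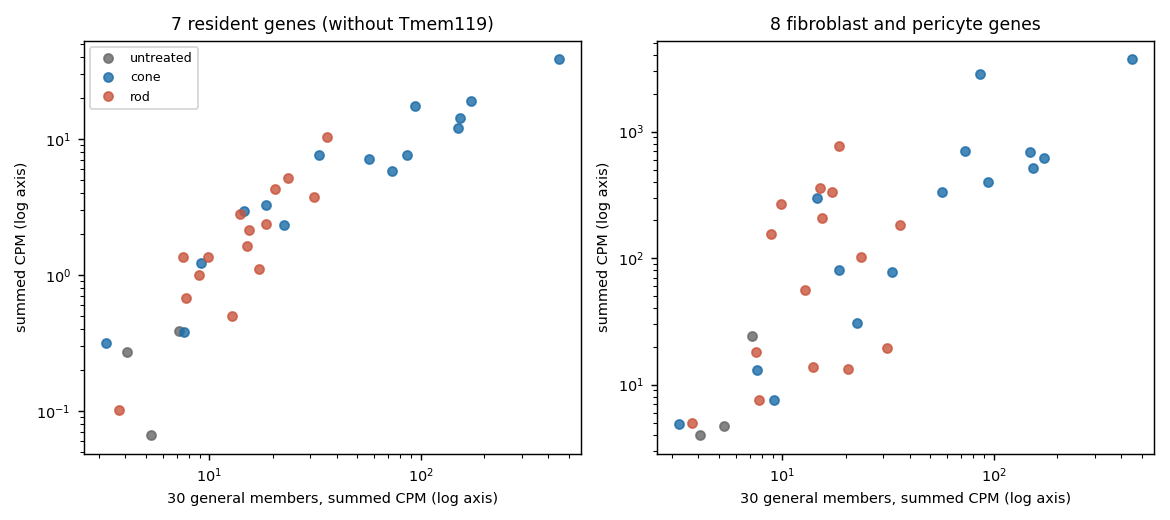
Summed CPM of the 30 general members (horizontal log axis) against that of 7 resident genes without Tmem119 (left) and of 8 fibroblast and pericyte genes (right), a point for each of 33 libraries. The resident sum follows the general sum up to 38.3 against 449 CPM, while libraries of like general sums differ widely in the fibroblast sum.

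The same members were followed over time against the primed cells of each culture. In cone cultures the number called higher than in cone primed cells was 3 at day 5 (Cx3cr1, Cd68 and Laptm5), 19 at day 12, 30 at day 21 and 31 of 31 at day 35, and 0 were called lower. Of all genes, 12.2%, 26.7%, 29.4% and 31.1% were called higher at these days, and 10.2%, 21.7%, 23.2% and 26.5% lower. Cx3cr1 was 3.34, 1.34 and 1.28 CPM at cone day 5 against 0.126, 0.323 and 0 CPM in cone primed cells, with no overlap (log2 fold change 3.51 ± 1.14, adjusted p by edgeR 0.0279). Lyz2 rose by 6.77 ± 0.87 on the log2 scale by day 35 (adjusted p by edgeR 2.03e-07).

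The early counts depended on single libraries. At cone day 5 the count was 0 or 1 without any 1 cone primed library or without cone day 5 replicate 1, and 5 with the 6 compared libraries fitted alone. At cone day 12 it was 12 and 10 without cone primed replicates 1 and 3, 9 without cone day 12 replicate 1, and 4 of 5 tested when fitted alone. At cone day 21, 18 of 18 tested were called when fitted alone.

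In rod cultures few members were called against rod primed cells, with 0 at day 5, 6 at day 12 (Fcrls, Cx3cr1, Cd68, Laptm5, Trem2 and Irf8), 2 at day 21 (Cd14 and Irf8) and 3 at day 35 (Cd68, Cd14 and Irf8), all higher. Of all genes, 8.76%, 24.2%, 27.2% and 29.4% were called higher. At day 5, 3 members had an unadjusted p under 0.05, and voom and DESeq2 called 1 each. The day 12 count was 2 without rod day 12 replicate 2, where Cx3cr1 was 5.25 CPM against 0.143 and 1.30 CPM in the others, 1 without rod primed replicate 1 or 2, 3 without rod primed replicate 3, and 2 of 8 when fitted alone.

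Irf8 was called in rod cultures at each of days 12, 21 and 35, with a log2 fold change of 2.40 ± 0.51 at day 35 (adjusted p by edgeR 0.000239), and in cone cultures it was 2.92 ± 0.54 (adjusted p by edgeR 3.87e-05). Cd68 rose by 1.16 ± 0.45 on the log2 scale in rod (adjusted p by edgeR 0.0307) and by 2.25 ± 0.45 in cone cultures (adjusted p by edgeR 0.000113) at day 35. The day 21 count in rod cultures was 1 without rod primed replicate 2 or 3 or rod day 21 replicate 2, and the day 35 count was 1 without rod day 35 replicate 1.

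Priming itself gave no call among the members. Against untreated cells, 0 members were called in cone primed cells, where 0% of all genes were called, and 0 in rod primed cells, beside 10.3% of all genes. Cone primed and rod primed cells did not differ in any tested member either, beside 7.27% of all genes. At an unadjusted p under 0.05 there were 0, 1 and 0 members in these 3 comparisons, and DESeq2 and voom also called 0. The summed general members were between 3.25 and 14.0 CPM in the 9 day 0 libraries, so differences between these groups were hardly detectable at this depth.

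Whether the cone minus rod difference itself changed with day was tested by an F test on 4 degrees of freedom. It was called for 8 members (C1qa, C1qb, C1qc, Ctss, Lyz2, Mpeg1, Fcer1g and Cd84), beside 9.22% of all genes. None of these is a resident microglia gene, but only 4 of the 8 resident genes were tested. The lack of a call does not show that their difference stayed the same over days. The count was 3 without cone day 5 replicate 2 and 15 without rod day 12 replicate 1, and between 4 and 5 without any 1 of 12 other libraries.

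Other macrophage genes, from lists outside the 38 members, were read in the same fit. Of 12 genes of border and perivascular macrophages, 6 were tested, and 4 were called higher in cone at both day 21 and day 35 (Ms4a7, Stab1, Siglec1 and Clec12a). Of all genes, 5.86% and 7.77% were called higher on these days. Ms4a7 was at 4.04 ± 4.42 CPM (SD, n = 3) in cone day 35 and 0.0539 ± 0.0934 CPM in rod day 35, a ratio of 82.0 (95% counting interval 22.3 to 683, adjusted p by edgeR 0.00114). The scavenger receptor Stab1 had a log2 fold change of 3.83 ± 0.70 (adjusted p by edgeR 0.000427). Cd163, another border macrophage gene, was at 0 in all cone day 35 and rod day 35 libraries.

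Of 16 genes of reactive and lipid-associated microglia, 13 were tested, with 8 called higher in cone at day 21, 5 at day 35 and 9 when days were averaged. The shares of all genes called higher were 5.86%, 7.77% and 15.6%. This list had mean sums of 403 CPM in untreated day 0, 3194 CPM in rod day 35 and 4239 CPM in cone day 35. The general members had 5.50, 15.2 and 230 CPM in these groups. Which cells held the genes of this list was not tested. Gpnmb, a lysosomal glycoprotein, was at 44.9 ± 12.6 CPM in cone day 35 and 2.58 ± 1.51 CPM in rod day 35 (log2 fold change 4.09 ± 0.67, adjusted p by edgeR 0.000132). The galectin Lgals3 had 2.69 ± 0.73 (adjusted p by edgeR 0.0148), and Ctsl, a protease of many cell types, had 0.47 ± 0.14 (adjusted p by edgeR 0.0210). Lpl, a lipase, was called at day 21 and for the days averaged (1.30 ± 0.27, adjusted p by edgeR 0.000514). Some calls in this list went the other way. At day 5 the lectin receptor Clec7a was called lower in cone cultures, at day 12 the fatty acid carrier Fabp5 was lower while 4 genes were higher, and between primed cells at day 0, 5 genes were lower in cone primed cells (Apoe, Axl, Cd9, Ctsd and Ctsl) and 1 higher (Lpl). Of 12 further microglia genes, 11 were tested, and over the mean of days 6 were called higher and 2 lower in cone. The shares of all genes were 15.6% and 12.2%. These 12 genes had mean sums of 21.0 CPM in untreated day 0, 269 CPM in rod day 35 and 364 CPM in cone day 35. Runx1, a blood lineage factor, was higher by 1.59 ± 0.18 (adjusted p by edgeR 1.04e-07), the phagocytic receptor Mertk by 0.91 ± 0.13 (adjusted p by edgeR 2.82e-06). The transporter Slco2b1 was higher by 2.14 ± 0.44 (adjusted p by edgeR 0.000593) and the lectin Cd33 by 2.21 ± 0.50 (adjusted p by edgeR 0.00129), while Olfml3 and Bhlhe41 were lower by log2 fold changes of -0.53 ± 0.13 and -0.41 ± 0.11. At day 0, Olfml3 and Bhlhe41 were called lower in cone primed than in rod primed cells.

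Ligands that microglia read were measured too. Of 8 ligand genes, all tested, 4 were called higher in cone at day 12 (Csf1, Il34, Tgfb1 and Tgfb3), 0 at day 21, 2 at day 35 and 6 when days were averaged. The shares of all genes called higher were 5.98%, 5.86%, 7.77% and 15.6%. Csf1, a ligand of Csf1r, was at 115 ± 22.6 CPM in cone day 12 and 44.2 ± 18.8 CPM in rod day 12 (log2 fold change 1.38 ± 0.26, adjusted p by edgeR 0.000660), and at 163 ± 4.91 and 81.8 ± 21.7 CPM at day 35 (0.99 ± 0.25, adjusted p by edgeR 0.00938). Il34, the other ligand of Csf1r, had 2.26 ± 0.58 at day 12 (adjusted p by edgeR 0.0123). Of 14 inflammatory cytokines and chemokines 4 were tested, and Ccl3 and Cxcl10 were called higher in cone at day 35. Ccl3 had no count in rod day 35 and was at least 14.4-fold higher (adjusted p by edgeR 0.0110), and Cxcl10 had 4.52 ± 0.94 (adjusted p by edgeR 0.00226).

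Lists of other blood cells were mostly too low to test. The 8 neutrophil genes summed to at most 0.170 CPM in any library, 7 mast cell genes to at most 0.225 CPM and 7 erythroid genes to at most 1.14 CPM, and 0 of these were tested. Of 9 T and NK cell genes, which summed to at most 2.49 CPM, Cd8a and Lck were tested. Of 6 B cell genes Pax5 was tested, and the list summed to at most 3.07 CPM and without Pax5 to 0.565 CPM. Of 5 dendritic cell genes Zbtb46 was tested, and the list summed to between 3.41 and 26.9 CPM, but without Zbtb46 to at most 0.601 CPM. None of these 4 tested genes was called between cone and rod cultures at any day, and for the untested genes no difference was detectable at this depth. Of 6 monocyte genes only Vcan, a matrix gene of many cells, was tested, with no call between cone and rod cultures. Ly6c2 was at 0 in all libraries and Ccr2 did not exceed 0.255 CPM. Of 6 MHC class II genes 3 were tested and 0 were called at any single day. Of 8 endothelial genes 3 were tested, and Kdr and Pecam1 were called higher in cone at day 35 (1.34 ± 0.25 and 1.86 ± 0.62). Of the 8 fibroblast and pericyte genes, 5 were called higher in cone at day 35, with the list's summed level at 520 to 3717 CPM in cone and 268 to 769 CPM in rod, and their part in the general members' difference was not tested.

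The non-members most alike in pattern were found by Pearson correlation of log2 CPM with the mean of the tested members over the 33 libraries, among 12903 genes. They were Lcp1 (0.932), Fyb (0.915), Nckap1l (0.905), Cdh3 (0.872), Unc93b1 (0.857), Gpnmb (0.851), Slc37a2 (0.847), Dock8 (0.845), St3gal6 (0.844) and Gas6 (0.840). The libraries share the day of culture, so these values are a description.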

How the data were processed

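Total RNA of cultured mouse retinal progenitor cells was sequenced in 33 libraries. Per the submitters' processing notes, HISAT2, StringTie, HTSeq and the build GRCm38 were used, with no roles or versions given. The authors deposited raw counts per gene, with 5 summary lines that were left out, and tables of TPM, FPKM and mean coverage (a per-base signal). Genes held 26.9% to 34.9% of counted reads. The deposited TPM and FPKM were not used for results, because TPM did not follow the counts. Strand settings are not given in the sources used here.

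All 33 libraries were fitted as 1 model of 11 groups with edgeR 4.0.16 (quasi-likelihood, TMM, filterByExpr at a minimum count of 10, without robust dispersion) in R 4.3.3. This left 18150 genes, over which p-values were adjusted by Benjamini-Hochberg, and genes under 0.05 were called. CPM uses TMM library sizes. The steps were run on simulated data with 1 spread for all genes and changes set only in better counted genes. Such data do not show how the steps perform for members near the floor or with wider spread. Alternatives were DESeq2 1.42.0, its size factors, limma 3.58.1 voom with sample weights, no filter, the compared libraries only, a replicate block, and each library left out. Where a control group was at 0 counts, folds are against a floor of 3 counts over the group, and at 1 to 3 counts a ratio with its counting interval is given, because a fitted fold then depends on the prior count.

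The members and lists were chosen with earlier results of these data known. Of the members, 12 are given in every library of the groups compared (P2ry12, Tmem119, Cx3cr1, C1qa, C1qb, Csf1r, Trem2, Tyrobp, Spi1, Lyz2, Mrc1 and Cd74). The others are given by ranges and counts, and up to 4 called genes are named for each of the 15 other lists, smallest p over the mean of days first. Library values given for Irf8, Cd68, Hpgds, Aif1 and Fcgr1, and the naming of Cd163, Ly6c2, Ccr2, Vcan, Zbtb46, Pax5, Cd8a, Lck, Olfml3, Bhlhe41, Clec7a, Fabp5, Lyz1 and the genes called at day 0, were added after their values were seen. The same holds for the naming of F13a1, Cbr2, Lyve1, Pf4, Lhx2 and Sox2.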

Additional observations from a re-analysis of the deposited data

Results flagged for a closer look

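For 8 members the difference between cone and rod cultures itself differed between days, by the F test of edgeR on 4 degrees of freedom. The adjusted p was 0.00125 for Lyz2, 0.0061 for C1qb, 0.00918 for Mpeg1, 0.024 for Cd84, 0.0353 for C1qa, 0.0379 for Ctss, 0.0386 for C1qc and 0.0495 for Fcer1g. For Lyz2 the cone over rod value on the log2 scale was -0.01 ± 0.75 (SE) at day 5, 3.72 ± 0.78 at day 12 and 6.35 ± 0.82 at day 35, and for C1qb it was -0.28 ± 0.86, 0.53 ± 0.84 and 5.51 ± 1.01. The choice of test decided much of this list: DESeq2 called all 8 of them, DESeq2 size factors in edgeR 7 and voom 1.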

How the results depend on the processing

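Of 115 fold changes of single members, 114 kept their direction and side of the threshold with size factors of DESeq2 in place of TMM, 112 with no filter, 110 with the DESeq2 test, 112 with the replicate block and 94 with voom. With the compared libraries only, 84 did, 4 calls were lost and 1 was gained, and the rest were not tested. Leaving out 1 library at a time ended 68 calls, added 23 and reversed 12 values, while 1145 stayed. DESeq2 gave no adjusted p for 22 member results.

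Among counts of members called, the change with day (8) was 4 with the replicate block, 5 with voom, of which 1 was among the 8, and 14 with DESeq2. With the compared libraries only, where fewer members passed the filter, counts were 0 for cone against rod at day 12 (2 in the full model), 18 at day 35 (28), 5 for cone day 5 against primed cells (3), 4 for cone day 12 (19), 18 for cone day 21 (30) and 2 for rod day 12 (6). Voom gave 5 for cone against rod at day 12, 11 for rod day 12 and 1 for rod day 5 (0), and DESeq2 gave 5 for cone day 5 and 1 for rod day 5. For the voom and DESeq2 counts the cause was not tested.

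Leaving out each library in turn, cone against rod ran from 0 to 0 at days 0 and 5, 2 to 2 at day 12, 8 to 17 at day 21, 19 to 30 at day 35 and 24 to 31 for the days averaged. Both primed comparisons stayed at 0 to 0. Against primed cells, cone ran 0 to 4, 9 to 23, 26 to 31 and 30 to 35 by day, rod 0 to 0, 1 to 6, 1 to 3 and 1 to 3, and the change with day 3 to 15. Counts above 31 arose where 34 or 35 members passed the filter. Values that reversed sign were all uncalled. At day 12, log2 fold changes reversed for Tyrobp (0.00080 with the replicate block, 1.68 with voom, -0.72 to 2.84 leaving out a library), Mrc1 (-0.024 with voom, -0.69 to 1.81), Cd74 (-0.77 with voom, -0.53 to 1.09) and C1qb (-0.25 to 1.87). Irf8 reversed at day 21 (-0.0078 without a filter, -0.17 to 0.24) and day 35 (0.24 with voom, -0.41 to 0.27).

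Replicate numbers were not taken to pair the libraries, since the labels give no shared source and correlations of deviations between same-numbered libraries ran from -0.259 to 0.513 (median 0.0164, 29.1% above 0.1, against -0.0114 and 21.5% for different numbers). That 19 of 33 libraries correlated best with their own number is a hint from the data only. The replicate block gave 2 members at day 12, 16 at day 21, 27 at day 35 and 25 for the days averaged, and ended the calls of Fcrls at day 21 (adjusted p by edgeR 0.0538) and Hpgds at day 35 (0.0616).

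The deposited TPM, listed with the other alternatives, were tested with limma on log2(TPM + 1) and set aside after the values were seen. Of 115 fold changes, 57 had TPM of 0 in every library compared, 25 went the opposite way, 20 lost the call and 13 stayed. Of 379 member values with at least 10 counts, 266 were at TPM 0. Over 2301 gene pairs that overlap on opposite strands, TPM followed the counts of the partner (Spearman 0.657) and not those of the gene itself (-0.329). Which table has the right strand is not given in the sources used here, and the results rest on the counts.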
